A study of Homo sapiens with 6 samples.

Results

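The nuclear-encoded subunit genes of complex I, 38 of the 60675 genes in the deposited tables, were followed through 6 libraries of RNA precipitated with an antibody against double-stranded RNA from a human leukaemia line. Members were taken by name: every gene symbol in the FPKM table made of NDUF, the letter A, B, C, S, V or AB, and a number, with the assembly factors (NDUFAF) left out. Complex I, NADH:ubiquinone oxidoreductase, is the entry point of the mitochondrial respiratory chain. It takes electrons from NADH in an arm that projects into the matrix, passes them along iron-sulfur clusters to ubiquinone, and pumps protons through an arm in the inner membrane. Its subunits come from both genomes: mitochondrial DNA encodes the core of the membrane arm, and nuclear genes encode the catalytic core of the matrix arm and all accessory subunits, whose mRNAs are translated in the cytosol.

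The cells were OCI-AML2, an established human acute myeloid leukaemia (AML) line, transduced with short hairpin RNA (shRNA) constructs against PNPT1 (3 libraries) or against SUPV3L1, also called SUV3 (3 libraries). PNPT1 encodes the mitochondrial exoribonuclease PNPase, and SUPV3L1 encodes its partner RNA helicase. RNA was pulled down with J2, an antibody against double-stranded RNA, so every value below is of precipitated RNA and not of total mRNA. Libraries from cells without a knockdown, and from RNA before precipitation, were not analysed here. Both groups therefore carry a knockdown, and each comparison sets SUPV3L1 knockdown against PNPT1 knockdown. The series' design text calls the 3 libraries of a group biological replicates; replicates 1 to 3 here are only names. Each sample title carries a number of its own, and the sources used here do not say what it stands for or whether 1 hairpin was used per target, so the SDs may include differences between hairpins.

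Counts assigned to genes ranged from 5852090 to 11361371 per library, the lowest in PNPT1 knockdown replicate 3. That library also stood apart in its genes with a count (16620, against 20765 to 22393 in the other 5), its alignments that were not unique (80.1%, against 65.7% to 71.6%) and its TMM factor, the scaling factor that edgeR derives from the bulk of genes (0.669, against 0.988 to 1.21). By mean, PNPT1 RNA was lower under its own knockdown, at 14.6 ± 6.06 against 28.5 ± 7.49 CPM (counts scaled to the TMM-adjusted library size; SD, n = 3), as was SUPV3L1 RNA, at 11.3 ± 1.61 against 18.5 ± 7.16 CPM. Neither passed edgeR's test over all genes (adjusted p = 0.898 for both). Of 10 myeloid markers, 7 passed the expression filter; among the others, CD34 had 0 counts in every library, KIT at most 5 and ANPEP at most 8. None of 10 markers of lymphoid, erythroid, epithelial and fibroblast cells passed it. Of the 7 myeloid markers 0 passed the test between the knockdowns, but 3 (LYZ, CD33 and SPI1) had groups that did not overlap, all higher under SUPV3L1 knockdown, as 4.62% of all genes did. LYZ, the lysozyme gene of myeloid cells, had 36.6, 180.1 and 143.8 CPM in PNPT1 knockdown replicates 1 to 3, against 1493, 344.2 and 1331 CPM in SUPV3L1 knockdown, a log2 fold change of 3.14 ± 0.70 (SE; edgeR adjusted p = 0.898). The 10 myeloid markers summed to 667.7 to 896.4 CPM under PNPT1 knockdown and 957.7 to 2228 CPM under SUPV3L1 knockdown. LYZ was a large part of this: it gave 1493 of the 2228 CPM in SUPV3L1 knockdown replicate 1. In PNPT1 knockdown replicate 1 it gave 36.6 of the 896.4 CPM. Of the 7 tested markers 5 had log2 fold changes above 0, and PTPRC (-0.22) and FLT3 (-0.03) lay below 0. The part of these markers in the results below was not tested.

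The promoters of 3 members illustrate the group. Nuclear respiratory factor 1 (NRF1), ETS-family factors such as GABPA, and YY1 are known regulators of nuclear genes for the respiratory chain. The 3 motifs were searched on both strands as GCGCA, any base, then GCGC for NRF1, CCGGAAG for the ETS core and AAGATGGC for YY1, in 300 bases that run from 250 before to 50 after each RefSeq start. RefSeq promoters were found for 32 of the 38 members. NDUFS7, shown first, was the member with the smallest p between the knockdowns. NDUFB4 held 3 NRF1 matches, the most of any member, and NDUFS1 had the most counts. All are 5′ to 3′ on the gene's own strand (GRCh38.p14), and capitals mark motif matches.
NDUFS7 promoter, chr19:1383657-1383956, plus strand, YY1 match in capitals: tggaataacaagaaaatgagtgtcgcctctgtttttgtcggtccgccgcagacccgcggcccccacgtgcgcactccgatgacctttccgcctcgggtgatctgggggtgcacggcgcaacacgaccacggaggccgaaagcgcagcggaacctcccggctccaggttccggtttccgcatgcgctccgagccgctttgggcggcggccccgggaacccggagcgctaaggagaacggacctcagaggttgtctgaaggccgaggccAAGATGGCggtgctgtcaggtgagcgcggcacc
NDUFB4 promoter, chr3:120596086-120596385, plus strand, NRF1 matches in capitals: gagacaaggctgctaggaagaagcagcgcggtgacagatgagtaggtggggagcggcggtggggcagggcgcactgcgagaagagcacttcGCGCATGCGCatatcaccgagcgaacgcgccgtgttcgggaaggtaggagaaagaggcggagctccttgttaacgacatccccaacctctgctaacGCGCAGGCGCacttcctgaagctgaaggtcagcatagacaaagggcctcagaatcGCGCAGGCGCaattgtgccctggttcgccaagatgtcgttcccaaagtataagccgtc
NDUFS1 promoter, chr2:206159395-206159694, minus strand, ETS match on the opposite strand in capitals: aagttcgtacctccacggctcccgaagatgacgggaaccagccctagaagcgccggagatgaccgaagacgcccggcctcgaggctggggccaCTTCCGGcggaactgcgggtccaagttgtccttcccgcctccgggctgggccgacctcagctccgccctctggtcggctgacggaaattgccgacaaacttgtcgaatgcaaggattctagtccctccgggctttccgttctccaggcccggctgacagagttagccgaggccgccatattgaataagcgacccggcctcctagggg

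At least 1 of the 3 motifs was present in 15 of the 32 member promoters (46.9%), against 17.9% of 27305 promoters of the same length. NRF1 matches were found for NDUFA3, NDUFA8, NDUFA9, NDUFA11, NDUFA12 and NDUFB4 (18.8% of members, against 6.28% of all promoters). YY1 matches were found for NDUFA3, NDUFA6, NDUFA7, NDUFA9, NDUFS4 and NDUFS7 (18.8% against 3.03%), and ETS matches for NDUFA1, NDUFA13, NDUFB7, NDUFS1 and NDUFS3 (15.6% against 10.7%). These are matches of letters only, and the promoters compared were not matched to the members for expression or base composition. Neither binding nor transcription was measured.

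The members differed widely in their level per length of transcript. FPKM, fragments scaled to transcript length and library depth, set that level, and the mean over the 6 libraries ran from 1.36 FPKM for NDUFA5 to 38.3 FPKM for NDUFS5, 28.1-fold apart. The median member, at 7.33 FPKM, lay at the 80.9th percentile of 10942 protein-coding genes tested, whose median was 2.95 FPKM, and 32 of the 38 members lay above that median. Small accessory subunits of the membrane arm filled the top of the order. NDUFS5 had 35.8, 20.8 and 70.9 FPKM under PNPT1 knockdown and 45.4, 28.2 and 28.7 FPKM under SUPV3L1 knockdown (here and below in the order of replicates 1 to 3). NDUFB10, a subunit of the distal membrane arm, followed at 28.2 ± 3.91 FPKM (SD over 6 libraries), then NDUFA1, an X-linked subunit of the proximal membrane arm, at 25.0 ± 7.85, NDUFB4 at 24.3 ± 8.27 and NDUFB7 at 22.6 ± 5.25 FPKM. These 5 differed by less than the spread of NDUFS5 over libraries (SD 18.0 FPKM). At the other end were NDUFA5 (1.36 ± 0.281 FPKM), NDUFA9 (1.64 ± 0.292) and NDUFA11 (1.90 ± 0.510), 2 of them subunits of the matrix arm, and neighbours among these 3 again lay within their SDs. Among the catalytic subunits, NDUFV2 averaged 10.8 FPKM and NDUFV1 8.77 FPKM, and NDUFS7, which carries the last iron-sulfur cluster before ubiquinone, had 1.45 FPKM in its lowest library and 3.62 FPKM in its highest.

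**Figure D1:**
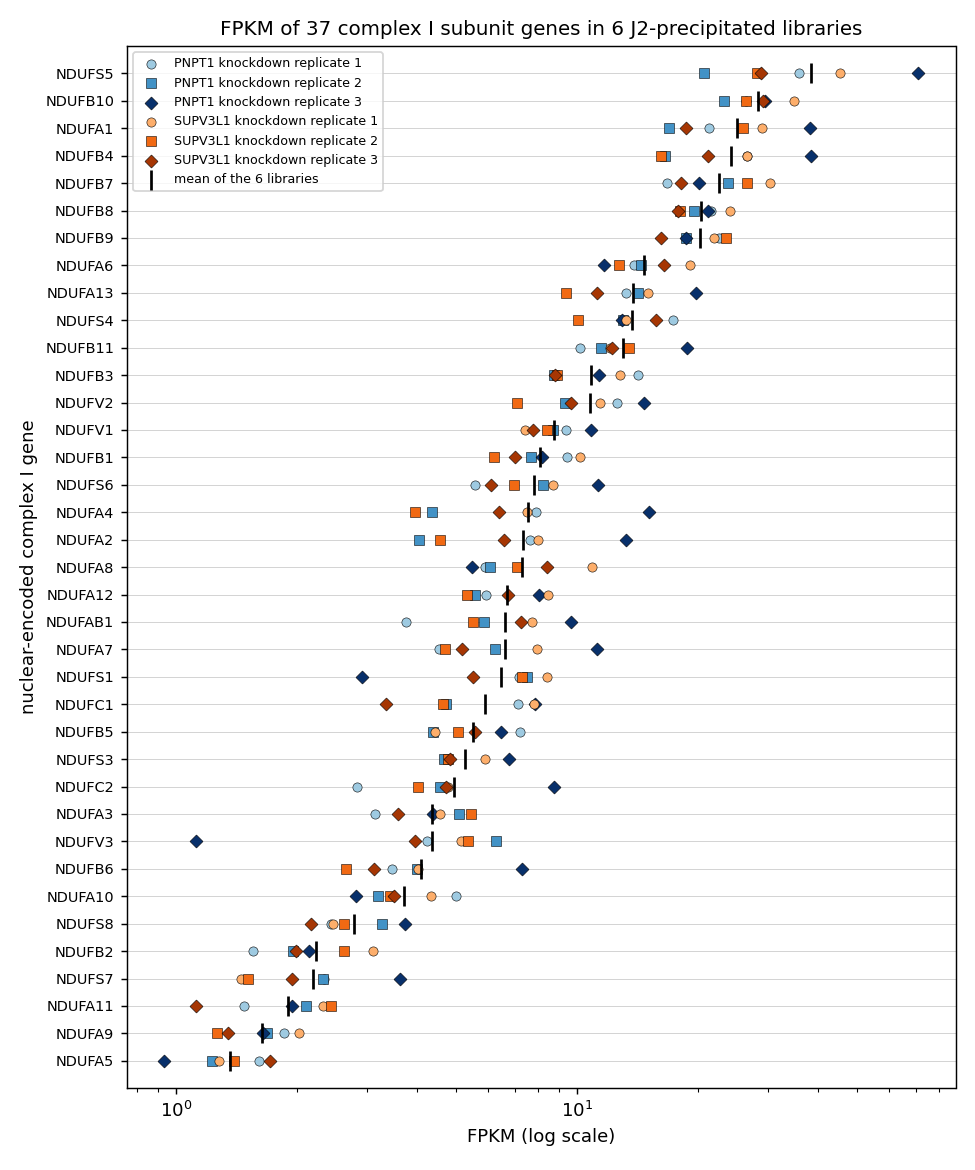
FPKM of 37 of the 38 members (rows, ordered by mean) in the 6 libraries, on a log axis; symbols are libraries and vertical ticks are means. Means run from 1.36 FPKM for NDUFA5 to 38.3 FPKM for NDUFS5.

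For 3 members the deposited counts and the deposited FPKM did not give the same picture. Counts per kilobase of the longest coding transcript were set against FPKM, and the median ratio over the 38 members served as the reference. NDUFA13 (also known as GRIM-19), NDUFC2 and NDUFA7 had 10.3-fold, 10.2-fold and 7.63-fold fewer counts than that ratio gives. The other 35 lay within 4-fold. NDUFA13 had a mean of 24.2 counts at 13.8 FPKM, NDUFC2 22.2 counts at 4.94 FPKM and NDUFA7 9.50 counts at 6.62 FPKM. In GENCODE 29 the exons of NDUFC2 (chromosome 11, 78068304 to 78080219, minus strand) overlap those of the read-through gene NDUFC2-KCTD14, which had 0 counts in all 6 libraries. Exons of NDUFA13 (chromosome 19, 19515736 to 19529054, plus strand) overlap AC011448.1 and YJEFN3, and those of NDUFA7 (chromosome 19, 8308768 to 8321396, minus strand) overlap AC010323.1 and, on the other strand, RPS28. Whether the overlaps lowered the counts was not tested. Exon overlap with another gene was found for 22 members in all, for 13 on the same strand and for 17 on the opposite strand. They were NDUFA1, NDUFA2, NDUFA3, NDUFA6, NDUFA7, NDUFA9, NDUFA11, NDUFA13, NDUFB2, NDUFB3, NDUFB6, NDUFB8, NDUFB9, NDUFB11, NDUFC1, NDUFC2, NDUFS1, NDUFS3, NDUFS7, NDUFS8, NDUFV1 and NDUFV2; the sources used here do not give the strand setting of the counting, so values of these 22 are uncertain. Of 59 pseudogenes named after complex I genes, 44 had 0 counts in every library, and together they had 233 counts against 56817 for the members. Because non-unique alignments give no counts, reads that match a member and a pseudogene equally would be in neither sum.

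**Figure D2:**
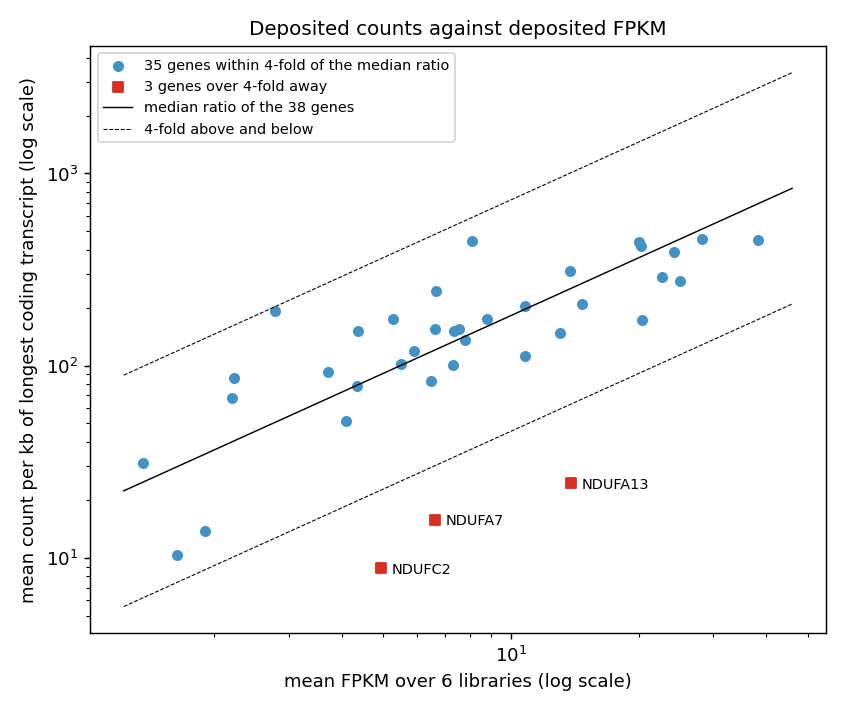
Mean count per kilobase of longest coding transcript against mean FPKM for the 38 members, both on log axes; the solid line is the median ratio and dashed lines lie 4-fold above and below. NDUFA13, NDUFC2 and NDUFA7 lie below the lower dashed line.

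The first comparison asked whether the knockdowns differed in the share of counts that complex I RNA took. A share does not give the amount of RNA precipitated. Together the members took 0.112%, 0.0919% and 0.114% of assigned counts under PNPT1 knockdown, against 0.115%, 0.0934% and 0.0930% under SUPV3L1 knockdown. Each share has a Wilson 95% interval of counting error; for the shallowest library, PNPT1 knockdown replicate 3, it ran from 0.112% to 0.117%. The group means, 0.106% ± 0.0123 and 0.101% ± 0.0128 (SD, n = 3), lay closer together than the replicates of either group, which overlapped. With mitochondrially encoded and clone-named genes (a group of genes named after genomic clones that took 37.7% of counts in PNPT1 knockdown replicate 3) left out of the total, the shares were 0.194% ± 0.0261 and 0.196% ± 0.0154. As a share of summed FPKM the order of the means turned, with 0.0192% ± 0.00325 under PNPT1 knockdown and 0.0256% ± 0.00490 under SUPV3L1 knockdown (SD, n = 3), again with overlap. In bulk libraries, fewer cells with an RNA and less of it per cell cannot be told apart. The 7 mitochondrially encoded complex I mRNAs took far more, 3.49%, 3.31% and 1.01% of counts under PNPT1 knockdown against 2.48%, 2.58% and 5.56% under SUPV3L1 knockdown. The means of 2.60% ± 1.38 and 3.54% ± 1.75 (SD, n = 3) lay within the spread, and replicate 3 was the lowest of one group and the highest of the other. All 7 had log2 fold changes above 0, with a median of 0.52 (0.20 without PNPT1 knockdown replicate 3 and 0.07 without SUPV3L1 knockdown replicate 3), and none passed edgeR's test (smallest adjusted p = 0.898).

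Gene by gene, no member passed the test between the knockdowns. Of the 38, 37 passed the expression filter, and NDUFA7 did not. Log2 fold changes are SUPV3L1 minus PNPT1 knockdown. The edgeR quasi-likelihood test, adjusted by Benjamini-Hochberg over all 13275 genes, called 0 of the 37 (smallest adjusted p = 0.898), as it did 0% of all genes. Without adjustment, 1 member (NDUFS7) had a p under 0.05, on the lower side, where 4.09% of all genes did in either direction and 2.39% on the lower side. DESeq2 also called 0 members, beside 0.136% of all genes, and had 1 member at an unadjusted p under 0.05, beside 5.55%. Limma on the FPKM values called 0 members, with 0 at an unadjusted p under 0.05, beside 2.57% of all genes on log2(FPKM + 0.1) and 2.85% on log2(FPKM + 1). The 2 groups did not overlap for 1 tested member, again NDUFS7, on the lower side, where 3.94% of all genes did not (8.56% in either direction).

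The direction of the members was lopsided, and it rested on 1 library. Log2 fold changes were below 0 for 29 of the 37 and above 0 for 8, where 49.3% of all genes tested were below 0 and 50.7% above. Their median was -0.27, with a range from -1.03 to 0.48, and the median of all genes was 0.0094. Without PNPT1 knockdown replicate 3, 38 members passed the filter, 25 of them were above 0 (50.9% of all genes), and the median was 0.11. Leaving out any other single library kept most members below 0: 6, 10, 7, 12 and 11 of 37 or 38 were above 0 without PNPT1 knockdown replicates 1 and 2 and SUPV3L1 knockdown replicates 1, 2 and 3, beside 52.2%, 52%, 50.4%, 48.3% and 49.2% of all genes. On plain library sizes 14 of 37 were above 0 (55.7% of all genes), and with limma 15 on log2(FPKM + 0.1) (63.7%) and 15 on log2(FPKM + 1) (61.9%), so more members lay below 0 than above on these scales too. Of the 16 tested members whose exons overlap no other gene 12 were below 0 (median -0.20), and of the 21 with overlap 17 were (median -0.40). PNPT1 knockdown replicate 3 held the highest scaled count for 30 of the 37 tested members, where it held the highest for 30.6% of all genes, and the lowest for 3, where it held the lowest for 36.4%. In shares of assigned counts without TMM scaling it was highest for 15 of 38 members (11.1% of all genes), and in FPKM for 18 of 38 (9.24%).

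**Figure D3:**
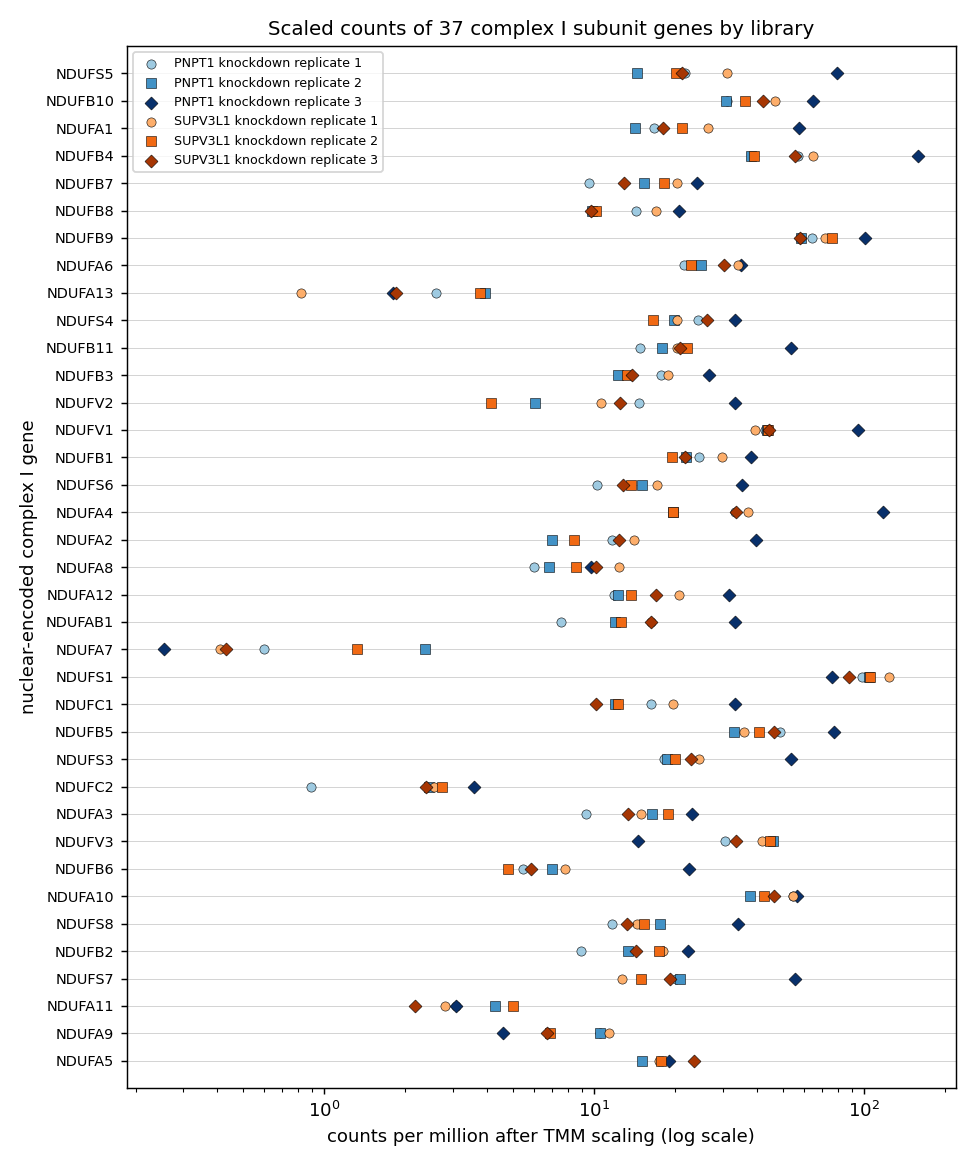
TMM-scaled CPM (log axis) of 37 of the 38 members in each library, in the row order of the FPKM plot; symbols are libraries. The dark blue diamonds, PNPT1 knockdown replicate 3, lie to the right of the other 5 libraries for 29 of the 36 tested members shown.

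Of the 7 members of the catalytic core of the matrix arm, 6 had log2 fold changes below 0 (median -0.51) and 6 were highest in PNPT1 knockdown replicate 3. Without it 5 stayed below 0, with a median of -0.03. NDUFS7 had 20.2, 20.8 and 55.5 CPM under PNPT1 knockdown, against 12.7, 14.9 and 19.2 CPM under SUPV3L1 knockdown. All SUPV3L1 knockdown values lay below all PNPT1 knockdown values, narrowly so for 2 of the latter. Its log2 fold change was -1.03 ± 0.44 (SE), and -0.40 ± 0.29 without PNPT1 knockdown replicate 3. The quasi-likelihood model fitted across all genes in edgeR gave an adjusted p of 0.898. Exons of other genes on the opposite strand cover 49.1% of the exonic length of NDUFS7 (chromosome 19, 1383527 to 1395589, plus strand).

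NDUFV1 and NDUFV2 form the tip of the matrix arm, where NADH hands its electrons to flavin. NDUFV1 had 43.1, 43.7 and 95.5 CPM under PNPT1 knockdown, against 39.4, 43.9 and 44.4 CPM under SUPV3L1 knockdown. Of its 6 values, 5 thus lay close together, and PNPT1 knockdown replicate 3 lay apart. NDUFV2 was at 14.6, 6.03 and 33.3 CPM against 10.6, 4.15 and 12.5 CPM, in the same order, with overlapping groups. Their log2 fold changes, -0.51 ± 0.37 and -0.96 ± 0.61 (SE), became -0.03 and -0.20 without that library. NDUFS8, an iron-sulfur subunit next to NDUFS7, and NDUFS3, a structural part of the ubiquinone module, followed. NDUFS8 had 11.6, 17.6 and 34.3 CPM against 14.5, 15.3 and 13.2 CPM, a log2 fold change of -0.55 ± 0.42 (SE) that was -0.03 without the library. NDUFS3 had 18.2, 18.6 and 53.5 CPM under PNPT1 knockdown and a mean of 22.4 ± 2.24 CPM (SD, n = 3) under SUPV3L1 knockdown, and its log2 fold change turned from -0.41 ± 0.44 (SE) to 0.28.

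NDUFS1, the member with the most counts, differed little between the knockdowns. This large iron-sulfur subunit, which receives electrons from the flavin end, had 98.3, 104.8 and 76.3 CPM under PNPT1 knockdown, against 123.9, 105.6 and 88.2 CPM under SUPV3L1 knockdown. It was the core subunit whose lowest value was in PNPT1 knockdown replicate 3. Its log2 fold change, 0.18 ± 0.30 (SE), was smaller than its standard error.

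Accessory subunits of the matrix arm included a member that ran opposite to most others. NDUFV3, an accessory subunit at the NADH end, had 30.7, 46.1 and 14.6 CPM under PNPT1 knockdown, against 41.9, 45.0 and 33.7 CPM under SUPV3L1 knockdown. Its lowest value was in PNPT1 knockdown replicate 3, where its deposited FPKM was 1.12 against 3.95 to 6.29 in the other libraries. The log2 fold change of 0.39 ± 0.40 (SE) was 0.06 without that library. NDUFA5 was at 17.3 ± 1.97 and 19.6 ± 3.42 CPM (SD, n = 3), a log2 fold change of 0.18 ± 0.32 (SE). NDUFA9, which sits beside the ubiquinone site, had 10.6, 10.5 and 4.61 CPM under PNPT1 knockdown and 11.3, 6.88 and 6.71 CPM under SUPV3L1 knockdown, by CPM again lowest in PNPT1 knockdown replicate 3, with a log2 fold change of -0.06 ± 0.46 (SE). That lowest value came from 18 counts. The deposited FPKM of NDUFA9 was not lowest there, at 1.65 against 1.26 and 1.35 in SUPV3L1 knockdown replicates 2 and 3. The remaining matrix arm accessory members that were tested lay between -0.72 (NDUFA2) and 0.11 (NDUFA6). Of the 15 tested members of the matrix arm, 11 were below 0, with a median of -0.29 (0.01 without the library).

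In the membrane arm the fold changes were also mostly below 0. Of 9 proximal members 7 were below 0 (median -0.07), though 6 of the 9 were above 0 without PNPT1 knockdown replicate 3 (median 0.28), and of 12 distal members 10 were (median -0.26). All 12 distal members were highest in PNPT1 knockdown replicate 3, and without it 10 of the 12 were above 0 (median 0.15). NDUFB6, a distal subunit, had 5.47, 6.99 and 22.5 CPM under PNPT1 knockdown, against 7.81, 4.81 and 5.85 CPM under SUPV3L1 knockdown. The 2 groups overlapped; PNPT1 knockdown replicate 3 lay above the other 5 values. The log2 fold change was -0.89 ± 0.57 (SE), and -0.02 with replicate 3 left out. NDUFB4 was at 56.8, 38.2 and 158.4 CPM against 64.5, 39.1 and 55.3 CPM, and its log2 fold change turned from -0.67 ± 0.49 (SE) to 0.15 in the same way. NDUFB10 was at 42.1 ± 19.4 and 41.8 ± 5.33 CPM (SD, n = 3), a log2 fold change of -0.0025 that was 0.43 without it, and NDUFB7 was at 16.3 ± 7.30 and 17.1 ± 3.83 CPM. NDUFB2, also distal, was at 14.9 ± 6.78 and 16.6 ± 1.98 CPM (SD, n = 3), a log2 fold change of 0.17 ± 0.39 (SE).

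Among proximal members, NDUFA8 had the largest log2 fold change above 0. It had 5.97, 6.81 and 9.72 CPM under PNPT1 knockdown, against 12.4, 8.58 and 10.2 CPM under SUPV3L1 knockdown. The groups overlapped at 1 value, PNPT1 knockdown replicate 3 lying above SUPV3L1 knockdown replicate 2. The log2 fold change was 0.48 ± 0.40 (SE; edgeR adjusted p = 0.898), and 0.32 to 0.69 when each library was left out. NDUFS5 was at 21.7, 14.4 and 79.6 CPM against 31.1, 20.1 and 21.1 CPM, and NDUFA1 at 16.7, 14.1 and 57.6 CPM against 26.4, 21.1 and 18.1 CPM. Both were highest in PNPT1 knockdown replicate 3, and their log2 fold changes of -0.66 and -0.41 were 0.41 and 0.50 without it. NDUFA11, NDUFA13 and NDUFC2 had few counts: 12 to 53, 7 to 45 and 9 to 31 per library. Their log2 fold changes, -0.07 ± 0.54, -0.40 ± 0.67 and 0.19 ± 0.62 (SE), were smaller than their standard errors. NDUFA7, which did not pass the filter, had 6, 27 and 1 counts under PNPT1 knockdown and 5, 14 and 4 under SUPV3L1 knockdown.

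NDUFA4 carries a complex I name, but its protein is known as a subunit of cytochrome c oxidase, complex IV. It had 33.3, 19.6 and 117.2 CPM under PNPT1 knockdown, against 37.3, 19.6 and 33.6 CPM under SUPV3L1 knockdown. Apart from PNPT1 knockdown replicate 3 the groups covered nearly the same range, and the log2 fold change went from -0.90 ± 0.59 (SE) to 0.18 without it.

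**Figure D4:**
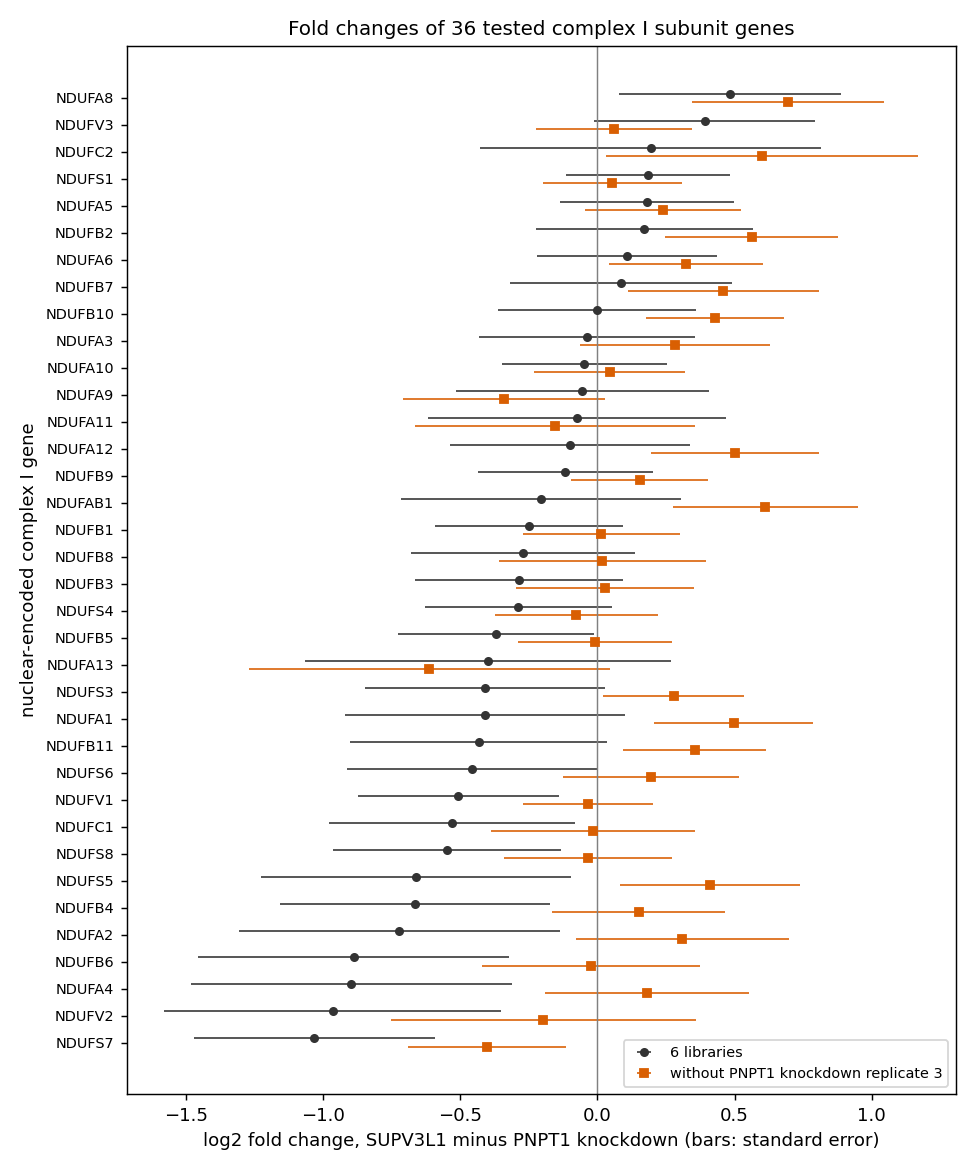
Log2 fold change, SUPV3L1 minus PNPT1 knockdown, of 36 of the 37 tested members with standard errors, from all 6 libraries (black circles) and without PNPT1 knockdown replicate 3 (orange squares). With 6 libraries 28 circles lie below 0, and without that library 25 squares lie above 0.

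Most members had short transcripts, a property the naming rule did not use, although they ran from 528 to 11819 bases. The longest coding transcript in GENCODE 29 had a median of 1257 bases over the 37 tested members, against 3449 bases over 10942 protein-coding genes tested. PNPT1 knockdown replicate 3 was set against the mean of the other PNPT1 knockdown libraries on the log2 CPM scale. Its excess had a median of 1.01 over the members, with 32 of 37 above 0, and of -0.04 over all protein-coding genes, with 48.6% above 0. Among genes with transcripts under 1 kb, 15 of 16 members were above 0 in that library, and so were 83.5% of all 400 such genes tested. The median excess there was 1.02 for members and 1.15 for all such genes. Among genes of 1 to 2 kb, all 9 members were above 0, against 66.0% of 1836 genes, with medians of 1.49 and 0.46. Among genes of 2 to 4 kb, 5 of 6 members were above 0, against 50.8% of 4219 genes. In the classes between 1 and 4 kb, members were thus above 0 more often, and had a higher median, than genes of their length. Among genes over 4 kb, 3 of 6 members were above 0, against 36.3% of 4487 genes, with medians of -0.10 and -0.29. NDUFV3, NDUFA9 and NDUFS1, with longest coding transcripts of 4676, 8363 and 11819 bases, had deviations of -1.35, -1.16 and -0.41. The other members over 4 kb, NDUFB5, NDUFA10 and NDUFA5, with 4046, 4915 and 5608 bases, had 0.94, 0.31 and 0.20. The median coding transcript was shorter, at 3125.5 bases for NDUFV3, 642 for NDUFA9 and 2382.5 for NDUFS1. For NDUFB5, NDUFA10 and NDUFA5 it was 847.5, 776 and 1468 bases. Of the short members, NDUFS5, with 548 bases, had 2.16 and NDUFA13, with 991 bases, -0.77. The NDUFA13 value rested on 7 counts in PNPT1 knockdown replicate 3. Its deposited FPKM was highest in that library, at 19.9 against 9.41 to 15.1 in the others. Spearman's rho between length and this deviation was -0.34 across the 37 members and -0.30 across all protein-coding genes, as a description of genes that share the same libraries. With the median coding transcript of each gene in place of the longest, it was -0.23 and -0.21. SUPV3L1 knockdown replicate 1, set against its own group in the same way, had a rho of -0.37 across the members and -0.05 across all protein-coding genes. The log2 fold change between the knockdowns was below 0 for 14 of the 16 tested members under 1 kb, beside 71.0% of all genes of that length, with medians of -0.28 and -0.31. Members of 1 to 2 kb and of 2 to 4 kb lay further below 0 than genes of their length: 7 of 9 were below 0 beside 56.4% (medians -0.43 and -0.08), and 5 of 6 beside 49.8% (medians -0.35 and 0.0021). Over 4 kb, 3 of 6 were, beside 45.3% (medians 0.07 and 0.05). The rho between length and this fold change was 0.19 across the members, and -0.02 with the median transcript. The part of transcript length in the members' values was not tested.

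**Figure D5:**
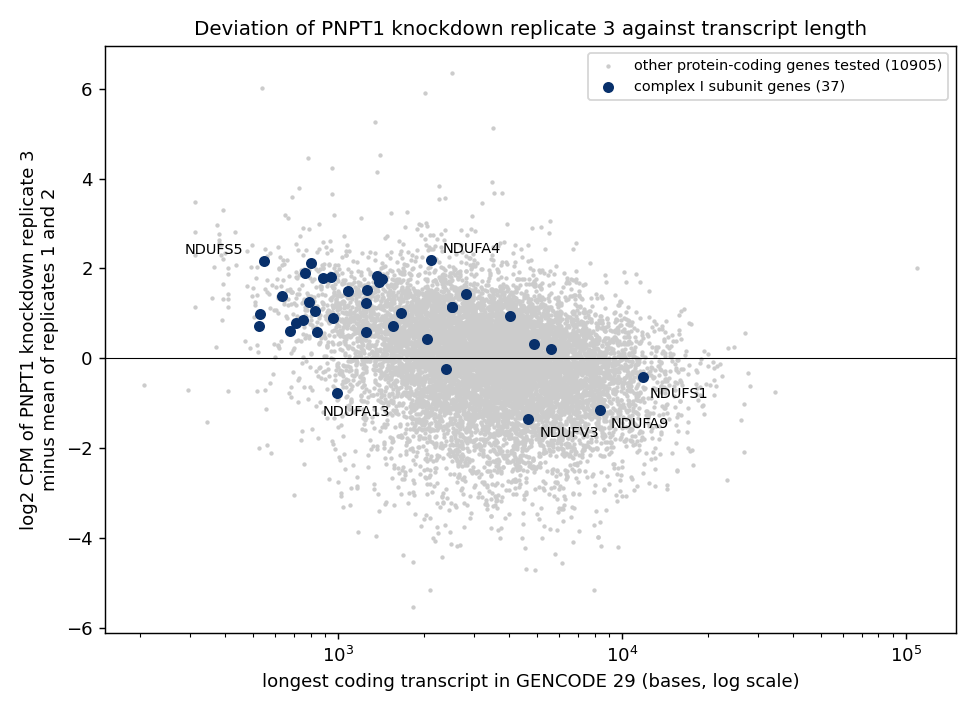
Log2 CPM of PNPT1 knockdown replicate 3 minus the mean of PNPT1 knockdown replicates 1 and 2, against the longest coding transcript (bases, log axis), for the 37 members (blue) and the other protein-coding genes tested (grey). Of the members, 32 lie above 0, and NDUFV3 and NDUFA9, both over 4 kb by their longest coding transcript, lie lowest. The median coding transcript of NDUFA9 has 642 bases.

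The other genes of the pathway were compared on the same fit. Of 17 complex I assembly factors, which build the complex and do not stay in it, 0 passed edgeR's test (smallest adjusted p = 0.898, with none under 0.05 before adjustment), 8 were above 0 and 9 below, and the median was -0.04 (0.14 with PNPT1 knockdown replicate 3 left out). NDUFAF5, which modifies NDUFS7 during assembly, and TMEM70 had the smallest p below 0, with log2 fold changes of -0.75 ± 0.48 and -0.77 ± 0.56 (SE). NDUFAF4 and FOXRED1 had the smallest p above 0, with 0.59 ± 0.43 and 0.53 ± 0.45. NDUFAF4 had 4.18, 7.16 and 9.98 CPM under PNPT1 knockdown, against 10.4, 10.7 and 10.5 CPM under SUPV3L1 knockdown, so its groups did not overlap on the higher side, as for 4.62% of all genes. A chosen list of 38 nuclear-encoded subunits of complexes II to V was set beside the members. Of these 38, 31 were below 0, with a median of -0.41, 34 were highest in PNPT1 knockdown replicate 3, and 29 were above 0 without it (median 0.17). Among them SDHA and ATP5I had the smallest p below 0 (log2 fold changes -0.88 ± 0.44 and -1.05 ± 0.54, SE), UQCR11 and ATP5O the smallest above 0 (0.62 ± 0.51 and 0.29 ± 0.39), and 0 passed the test in edgeR, with 0 at an unadjusted p under 0.05.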

How the data were processed

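Per the labels' protocols, J2-bound RNA went through a strand-specific library kit and was sequenced. The deposited counts are whole-number reads per Ensembl gene, with 5 summary lines that entered neither library sizes nor tests; the submitters' processing notes name GRCh38, HTSeq, HISAT2 2.2.1, StringTie 2.1.4 and SAMtools 1.14. The deposited FPKM table, made by the authors, scales fragments to gene length and depth; sources used here give neither the tool that made it nor the annotation release or strand setting of the counting. Non-unique alignments give no counts.

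Counts were tested with edgeR 4.0.16 (quasi-likelihood, TMM, default filter with a minimum count of 10 and a total of 15) in R 4.3.3 on all genes, with Benjamini-Hochberg adjustment at 0.05. The procedure was also run on simulated data with large changes and a capped spread between libraries. That run does not show its power in these data. Each standard error is the log2 fold change divided by the root of its F statistic. Alternatives used DESeq2 1.42.0, limma 3.58.1 on log2(FPKM + 0.1) and log2(FPKM + 1), other scalings and filters, and each library left out. Positions, lengths and overlaps come from GENCODE 29 (GRCh38), and promoters from RefSeq (GRCh38.p14). P-values set the difference between the groups against the spread among the 3 libraries of each group, estimated with information from all genes.

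Named members were the 7 catalytic subunits, the 5 highest and 3 lowest by FPKM, the 5 with the smallest p in each direction at a mean of 20 counts or more, NDUFA4, members lost to the filter and members whose counts and FPKM differed by over 4-fold; from other lists, the 2 smallest p each way. Members with exon overlap were named too, and other members only for a motif or length value. Members and lists were chosen with earlier results of these data known. Of the members, 1 is counted in the totals but is not reported here by itself.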

Additional observations from a re-analysis of the deposited data

How the results depend on the processing

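No member passed the threshold under any of the 14 alternatives. The count of members above 0, 8 with all libraries, was 14 of 37 on plain library sizes (55.7% of all genes), 15 with limma on log2(FPKM + 0.1) (63.7%) and 15 on log2(FPKM + 1) (61.9%), and ran from 6 to 25 when each library was left out, 25 being without PNPT1 knockdown replicate 3. The median log2 fold change ran from -0.43 to 0.11 with a library left out and was -0.11 on plain library sizes and -0.07 on log2(FPKM + 0.1), where that of all genes was 0.17. The difference in the members' summed share of counts, -0.0055 percentage points, ran from -0.0129 to -0.0013 with a library left out. Of all genes, DESeq2 called 18 and edgeR without the expression filter 187, and leaving out libraries gave 0 to 1.

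The sign changes below cover only members named for a reason other than exon overlap, a motif or a length value. Some other members changed sign too, on plain library sizes, on FPKM and with libraries left out. The log2 fold change changed sign for NDUFB10 on plain library sizes (0.19), without the filter (0.0298), with the strict filter of 50 counts (0.0267) and on FPKM (0.19 and 0.18). On FPKM it also did so for NDUFA1 (0.0090 and 0.0068), NDUFA11 (0.0223 and 0.0299) and NDUFC2 (-0.11 and -0.11). With libraries left out, the log2 fold changes ran from -0.76 to 0.50 for NDUFA1, -0.50 to 0.15 for NDUFA11, -1.32 to 0.18 for NDUFA4, -0.35 to 0.12 for NDUFA9, -0.19 to 0.43 for NDUFB10, -0.10 to 0.56 for NDUFB2, -1.02 to 0.15 for NDUFB4, -0.19 to 0.46 for NDUFB7, -0.22 to 0.60 for NDUFC2, -0.68 to 0.28 for NDUFS3 and -1.07 to 0.41 for NDUFS5. The cause was not tested. No paired analysis was possible because no replicate number is shared between the groups: the titles carry a different number for each library. NDUFC2, NDUFA13 and NDUFA7 had the fewest counts, and few counts limit the precision of their values.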
